A study of Mus musculus with 15 samples.

Results

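Basal-high and basal-low tumours are the extremes of a set of 15 mouse mammary tumours ranked by 4 genes of the basal epithelial layer. The genes were the keratins Krt5, Krt14 and Krt17 and the transcription factor Trp63. For each tumour the log2 signal of each gene was taken relative to the 75th percentile of its array, and the 4 values were averaged into a basal score. The 5 tumours with the highest score form the basal-high group, the 5 with the lowest form the basal-low group, and the 5 between them are called intermediate. All groups were thus chosen from measured values of the 4 genes, so their levels in the groups are given as a description with no test, and they were left out of the comparison across genes. Background and slide, which the ranking did not use, were tested against the score over all 15 tumours.

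Each sample was 1 array of RNA from 1 spontaneous mammary tumour taken at 20 weeks of age. All 15 tumours carried the MMTV-PyMT transgene, in which a promoter active mainly in mammary epithelium drives the polyoma middle T oncogene, and no normal gland or transgene-free control was compared here. The mice had the B6 background (C57BL/6, 8 tumours) or the Wsh background (7 tumours), Wsh being the usual name of the Kit W-sh allele. Adult mice homozygous for that allele lack mast cells. By its title the series asks how mast cells affect the phenotype of mammary cancer cells, and the labels name no treatment. The basal-high group held B6 replicates 1 and 3 and Wsh replicates 2, 4 and 5. The basal-low group held B6 replicates 5, 7 and 8 and Wsh replicates 1 and 6. Whether some tumours came from the same mouse is not in the labels, and p-values therefore measure only the spread between these samples.

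In the mammary duct, an inner layer of luminal cells is wrapped by an outer layer of basal, or myoepithelial, cells. Basal cells carry keratins 5 and 14, sit on the basement membrane through hemidesmosomes and integrins, and contract with a smooth muscle type of actin and myosin to expel milk, and p63, the product of Trp63, is needed to make and keep stratified and basal epithelia. Keratins 6, 16 and 17 are also made by stressed or wounded epidermis, and keratins 5 and 14 by the basal layer of skin and hair follicles. Tumours of MMTV-PyMT mice are known as mainly luminal.

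Transcripts of both epithelial layers and of stroma were measured on every array. All 18 genes of a luminal epithelium list, 17 of 18 genes for basal adhesion, 15 of 16 tested genes of the contractile apparatus and 14 of 14 fibroblast genes were well above background on all 15 arrays, so detection does not tell the cell types apart. These are whole-tumour RNAs, so fewer cells of a type and less RNA per cell cannot be told apart. Between 55.7% and 73.4% of spots were well above background per array, with a range of 56.8% to 73.4% in basal-high and 56.9% to 70.8% in basal-low tumours, and precision is limited by how few arrays there are. Arrays lay on a pair of slides with 1 scan time each. Slide 1 held 4 of the 5 basal-high tumours and slide 2 held 4 of the 5 basal-low tumours, so a comparison within each slide was not possible, and differences are also given with the slide as a second covariate. The part of the slide in the results was not tested beyond that.

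The basal score was 3.06 in Wsh replicate 2, 2.39 in B6 replicate 3, 2.05 in Wsh replicate 4, 2.05 in B6 replicate 1 and 1.96 in Wsh replicate 5. The intermediate tumours lay between 1.58 and 1.70. The basal-low tumours had 1.45 in B6 replicate 7, 1.39 in Wsh replicate 6, 1.15 in Wsh replicate 1, 1.10 in B6 replicate 5 and 0.66 in B6 replicate 8. The tumours just inside and outside the upper limit were thus at 1.96 and 1.70, and those at the lower limit at 1.45 and 1.58. The group means were 2.30 ± 0.45 (SD, n = 5) and 1.15 ± 0.31 (SD, n = 5), a difference of 1.15 or 2.22-fold.

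Krt5, a type II keratin of basal cells, separated the groups, with 3.60, 3.44, 2.72, 2.61 and 1.94 in the basal-high tumours (in the order of the score) against 1.76, 1.55, 1.45, 0.35 and 0.52 in the basal-low ones. Krt17, a keratin of basal and stressed epithelium, had 2.80, 1.76, 1.01, 1.43 and 2.20 against 0.96, 0.34, 0.07, 0.47 and -0.21. Neither of these keratins overlapped between the groups. Krt14, the type I partner of keratin 5, had 4.54, 3.67, 3.21, 2.71 and 2.52 against 2.14, 2.86, 2.17, 2.64 and 1.51, so that 2 basal-low tumours exceeded the lowest basal-high one. Trp63 spanned a narrow range, with 1.30, 0.71, 1.25, 1.46 and 1.19 against 0.95, 0.82, 0.92, 0.94 and 0.83, and B6 replicate 3, second by score, had the lowest Trp63 of all 15 tumours. The differences were 1.73 for Krt5 (3.32-fold), 1.06 for Krt14 (2.09-fold), 1.51 for Krt17 (2.85-fold) and 0.29 for Trp63 (1.22-fold). The ranking therefore came mostly from the 3 keratins, and it chose the same 10 tumours without Krt5 or without Trp63. Without Krt17 it kept 4 of the 5 basal-high tumours, with Wsh replicate 7 in place of Wsh replicate 5. Without Krt14 it kept 4 of the 5 basal-low tumours, with Wsh replicate 7 in place of B6 replicate 7. Their probes lie in mm9 at chr15:101537514-101537573 (Krt5), chr11:100064495-100064554 (Krt14), chr11:100117584-100117643 (Krt17) and chr16:25871159-25871218 (Trp63), and were well above background on all 15 arrays.

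**Figure D1:**
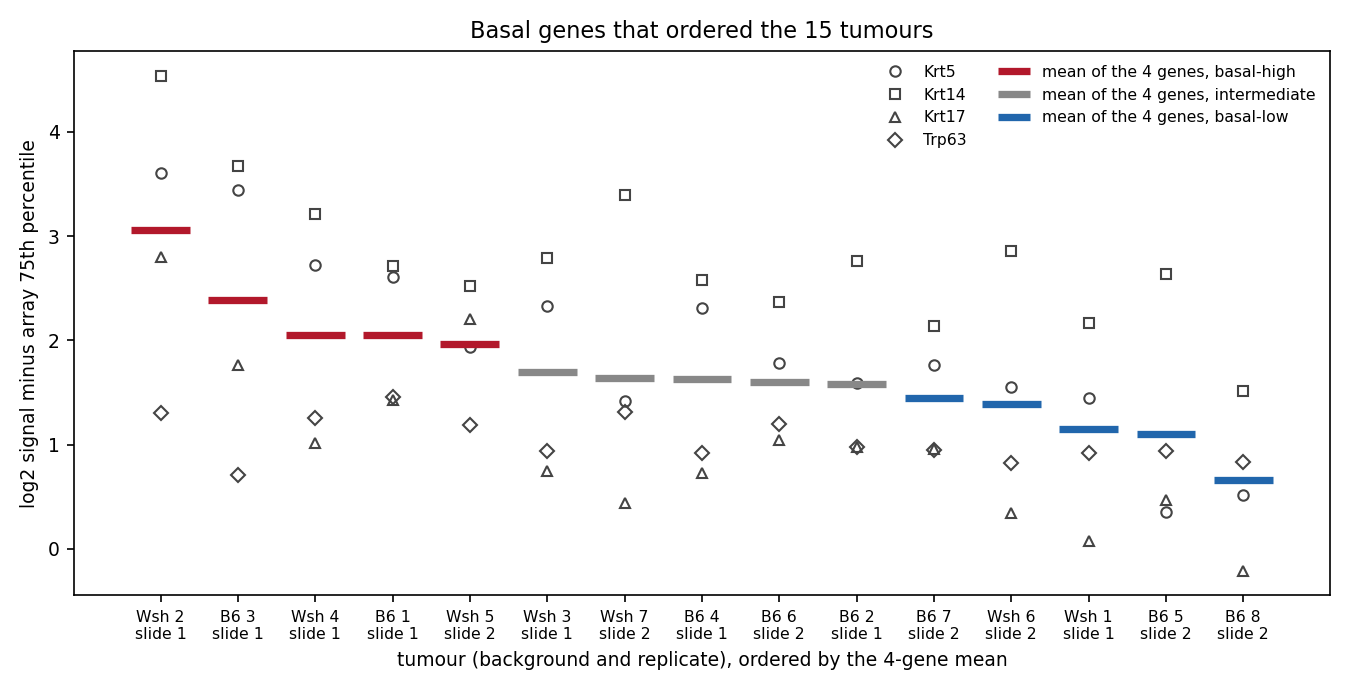
The 4 basal genes (open symbols) and their mean (bars coloured by group) in each of the 15 tumours, as log2 signal minus the 75th percentile of the array, ordered by that mean. The mean runs from 3.06 to 0.66, Krt5, Krt14 and Krt17 fall along the order while Trp63 stays between 0.71 and 1.46, and slide 1 holds 4 of the 5 tumours at the left.

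Neither background had a detectably higher score. It was 1.85 ± 0.62 (SD, n = 7) in Wsh and 1.56 ± 0.53 (SD, n = 8) in B6, a difference of 0.29 (exact permutation test, two-sided, p = 0.347). Between slides the difference was 0.55, with 1.95 ± 0.58 (SD, n = 8) on slide 1 and 1.40 ± 0.42 (SD, n = 7) on slide 2 (exact permutation test, two-sided, p = 0.0531). That p was below 0.05 with normexp correction, quantile normalization or the deposited values, and without B6 replicate 2, Wsh replicate 1 or Wsh replicate 5. Within B6 the slides differed by 0.71 (4 against 4 tumours, exact permutation test, two-sided, p = 0.0571) and within Wsh by 0.33 (4 against 3, exact permutation test, two-sided, p = 0.629). Which of slide and tumour sets the score cannot be told apart where a slide holds most of a group.

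Across all other genes, basal-high and basal-low tumours were compared with limma, with background as a covariate, and no gene passed. Of 22439 genes tested, 0 (0% of all) had an adjusted p under 0.05, the lowest being 0.248 for Cntn2, and 1750 (7.8%) had an unadjusted p under 0.05. Of the latter, 1150 (5.13% of all genes) were on the basal-high side and 600 (2.67%) on the basal-low side. That balance depended on the scaling, with 765 and 614 when arrays were centred on their median, and 2276 and 516 with normexp background correction. The 5 values of one group lay wholly above the 5 of the other for 210 genes in the basal-high direction (0.936%) and 112 in the basal-low direction (0.499%). Together these were 322 genes (1.44%). No gene had a difference that depended on background by the adjusted p of the interaction term in limma, and 568 (2.53%) had an unadjusted p under 0.05 for it. Since no gene passed, every difference below is a value with its standard error (SE) and not a call.

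The gene with the highest moderated t was Cntn2, which encodes contactin 2, an adhesion protein of the immunoglobulin family best known from axons. It was at -1.93, -1.18, -1.96, -2.35 and -2.06 in the basal-high tumours and at -5.70, -5.08, -4.88, -4.02 and -4.15 in the basal-low ones. The groups did not overlap, and the intermediate tumours ranged between -4.99 and -2.53. The difference was 2.92 (SE 0.34, limma adjusted p = 0.248), or 7.59-fold, 2.88 with slide as a covariate and 2.91 without Wsh replicate 2. Normexp background correction gave 2.21, and 4 of the 5 basal-low arrays were well above background. The probe lies in mm9 at chr1:134408720-134408779.

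Frem2, an extracellular matrix protein that anchors epithelia to the basement membrane, was at -4.15, -2.73, -3.99, -3.79 and -2.20 against -5.77, -5.83, -5.13, -5.80 and -6.07. Again the groups were separate, with only 2 of 5 basal-low arrays well above background. The difference was 2.33 (SE 0.40, limma adjusted p = 0.491), 3.01 by the gene's other probe, 2.51 without Wsh replicate 2, and 1.42 with normexp correction. Capn6, a calpain family member without protease activity, differed by 2.10 (SE 0.39), and Slc6a2, the noradrenaline transporter, by 0.90 (SE 0.12, limma adjusted p = 0.356).

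The rest of the 12 genes with the highest moderated t had differences from 0.59 to 1.5. Gpr179, an orphan receptor of retinal bipolar cells, was at 1.5 (SE 0.27, or 0.99 with normexp correction), Hcrtr1, an orexin receptor, at 1.09 (SE 0.20) and Pknox2, a homeodomain factor, at 1.05 (SE 0.20). Slc39a14, a zinc transporter, was at 0.97 (SE 0.18), Pdlim7, an actin-associated scaffold, at 0.88 (SE 0.16) and Ptpru, a receptor tyrosine phosphatase, at 0.82 (SE 0.14). Spred1, an inhibitor of Ras signalling, had the narrowest spread, with 1.97 ± 0.07 against 1.40 ± 0.13 (SD, n = 5 each) and a difference of 0.59 (SE 0.11). The last of the 12, the chemokine Cxcl14, belongs to the basal regulator list below.

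Genes of basal adhesion were all on the basal-high side. The list holds hemidesmosome, basement membrane and integrin genes, and 18 of its 18 members were tested. All 18 had a difference above 0, against 54.1% of all genes, with a median of 0.59 against 0.03. Of the 18, 9 had an unadjusted p under 0.05, against 5.13% of all genes on the basal-high side. The groups were separate for 4 of the 18, against 0.936% of all genes in that direction. These 4 include Col7a1, Lama3 and Itga2. The median was 0.84 with slide as a covariate and 0.66 without Wsh replicate 2.

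Lama3, the alpha chain of the laminin that hemidesmosomes bind, was at -0.83, -0.37, -1.23, -0.33 and -0.09 in basal-high tumours and -1.40, -2.18, -1.46, -2.81 and -2.76 in basal-low ones. Its difference was 1.54 (SE 0.36, limma adjusted p = 0.491), or 2.91-fold. It was 1.87 by the other probe and 1.61 without Wsh replicate 2. Col7a1, the collagen of anchoring fibrils, was at 2.37, 3.06, 2.51, 2.66 and 3.15 against 2.07, 2.01, 1.93, 2.03 and 1.54, a difference of 0.84 (SE 0.19) that was 0.92 without Wsh replicate 2. The laminin and collagen receptors gave 0.98 for Itga2 (SE 0.27) and 0.85 for Itga3 (SE 0.26), whose other probe gave 0.18. Col17a1, a transmembrane collagen of hemidesmosomes, had a difference of 1.36 (SE 0.50), with groups that overlapped.

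The mean of the 18 adhesion genes, relative to the mean of all 15 tumours, was 0.09, 0.54, 0.16, 0.19 and 0.59 in the basal-high tumours. In the basal-low tumours it was -0.30, -0.19, -0.44, -0.31 and -0.34. The basal-high tumours were thus all above the basal-low ones, and the intermediate tumours spanned -0.24 to 0.24.

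Genes of the contractile apparatus had the largest median difference of the 6 lists of basal and keratinocyte genes apart from the stratified keratins described below. Of 18 members 16 were tested, and Myocd and Mypn were not, being well above background on 0 and at most 3 arrays. All 16 had a difference above 0, with a median of 1.0 against 0.03 over all genes. Of the 16, 12 had an unadjusted p under 0.05, against 5.13% of all genes on the basal-high side. Only Tpm1, a tropomyosin that was named after its values were seen, had separate groups (difference 0.75, SE 0.27). That is 1 of 16, against 0.936% of all genes in that direction.

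Acta2, the smooth muscle actin by which myoepithelial cells are recognised, was at 4.20 in Wsh replicate 2 and at 5.69, 4.63, 5.07 and 5.96 in the other basal-high tumours. The basal-low tumours had 4.61, 3.79, 4.12, 3.76 and 3.31, so B6 replicate 7 exceeded Wsh replicate 2. The difference was 1.23 (SE 0.38, limma adjusted p = 0.497), or 2.35-fold, and 1.42 without Wsh replicate 2. Tagln, the actin-binding protein transgelin, differed by 1.03 (SE 0.32) and Tpm2, a tropomyosin, by 1.42 (SE 0.39), or 1.70 without Wsh replicate 2. Mylk, the kinase that starts smooth muscle contraction, differed by 1.30 (SE 0.39), although its 4 other probes ran from -0.10 to 1.63. Smtn, which encodes smoothelin, had 0.72 (SE 0.17), and Lmod1, an actin nucleator of smooth muscle, had 1.34 (SE 0.33), with 3 of 5 basal-low arrays well above background.

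The tumour with the highest basal score was therefore not the one with the most contractile transcript. The mean of the 16 genes was -0.27 in Wsh replicate 2, against 0.88, 0.36, 0.32 and 1.02 in the other basal-high tumours. The basal-low tumours had -0.14, -0.58, -0.24, -0.68 and -0.77, a range that includes Wsh replicate 2. Without that tumour the median of the list was 1.21, and with slide as a covariate 1.2.

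Vascular smooth muscle shares actin and myosin genes with myoepithelial cells. The median over 12 pericyte and vascular smooth muscle genes was -0.04, with 5 above 0, and the list mean ran from -0.24 to 0.31 in basal-high and from -0.57 to 0.48 in basal-low tumours. Its leading members were Notch3 at 0.48 (SE 0.17), also a Notch receptor, and the potassium channel subunits Kcnj8 at -0.63 (SE 0.29) and Abcc9 at -0.35 (SE 0.26).

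**Figure D2:**
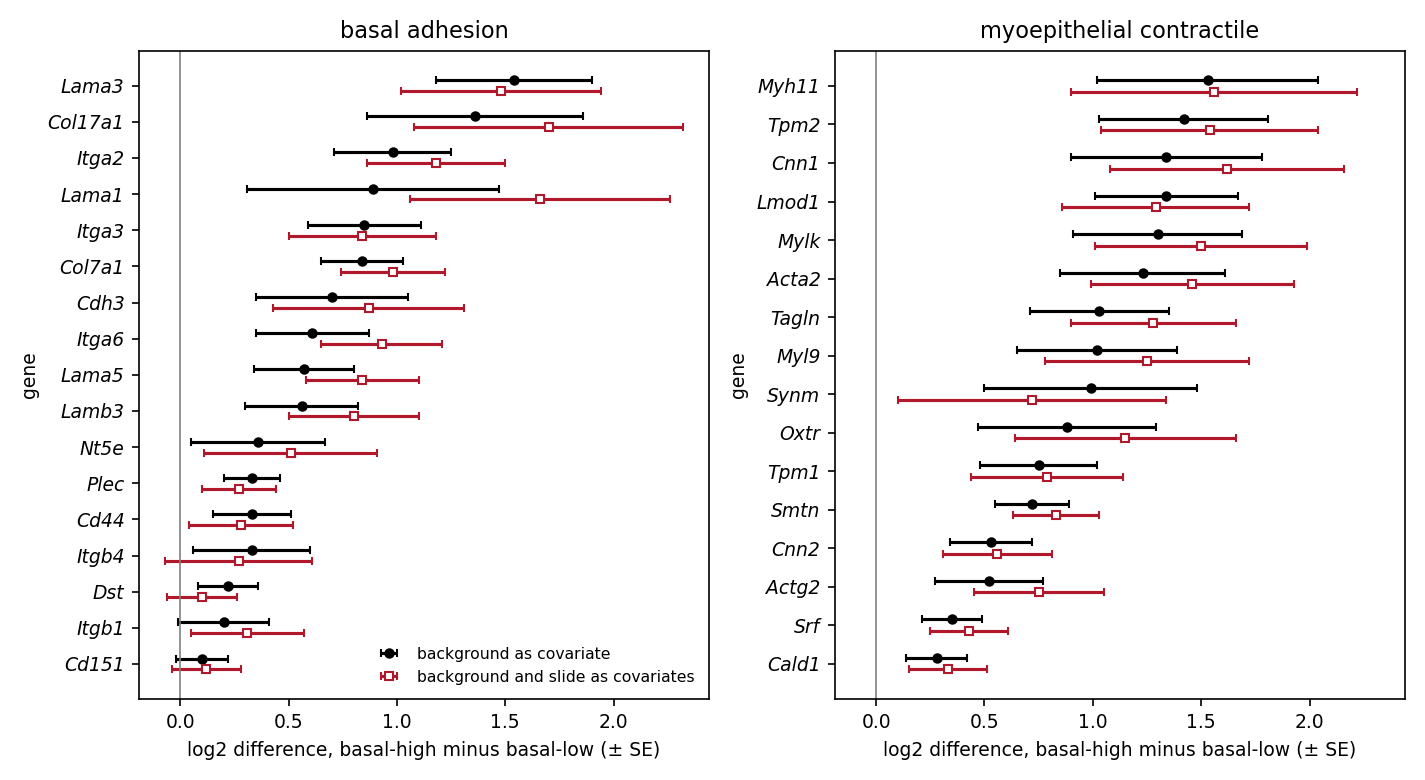
Differences in log2 signal between basal-high and basal-low tumours (5 each, bars are SE) for 17 of the 18 adhesion genes and the 16 tested contractile genes, with background (black) or background and slide (red, open) as covariates. All genes drawn lie to the right of 0 in both fits, and the medians of the whole lists were 0.59 and 1.0, or 0.84 and 1.2 with slide.

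Serum response factor, the product of Srf, binds the CArG box and drives smooth muscle genes together with myocardin family partners. In RefSeq promoters of GRCm38.p6, the 250 bases before the start sites of the contractile genes were searched for this 10-base motif on both strands. It was found in 3 of the 14 contractile genes with a promoter entry (21.4%) and in 439 of 27025 genes of the whole table (1.62%, or 1.47% of 32851 promoters of the same length). It was found in 0 of 11 adhesion genes, 0 of 20 basal regulator genes and 0 of 8 pericyte and vascular smooth muscle genes. The contractile list includes Srf itself, and its share of promoters with the motif describes the list and not these tumours. The 3 promoters are shown in full because they hold the match, 5′ to 3′ on the strand of the gene, with the boxes in capitals, and each ends at the base before the start site. They lie at chr2:156775214-156775463 (plus strand, Myl9), chr10:79988350-79988599 (plus, Cnn2) and chr17:46556163-46556412 (minus, Srf).
Myl9: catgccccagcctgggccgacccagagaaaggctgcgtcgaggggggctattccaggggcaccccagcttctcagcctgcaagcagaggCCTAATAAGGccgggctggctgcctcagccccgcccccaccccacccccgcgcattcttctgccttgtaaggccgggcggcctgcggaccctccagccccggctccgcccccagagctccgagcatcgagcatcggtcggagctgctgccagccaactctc
Cnn2: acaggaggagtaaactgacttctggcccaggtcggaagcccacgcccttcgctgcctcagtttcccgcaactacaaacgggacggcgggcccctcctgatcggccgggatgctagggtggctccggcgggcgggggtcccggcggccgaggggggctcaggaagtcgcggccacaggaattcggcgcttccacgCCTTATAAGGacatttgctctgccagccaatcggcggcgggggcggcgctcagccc
Srf: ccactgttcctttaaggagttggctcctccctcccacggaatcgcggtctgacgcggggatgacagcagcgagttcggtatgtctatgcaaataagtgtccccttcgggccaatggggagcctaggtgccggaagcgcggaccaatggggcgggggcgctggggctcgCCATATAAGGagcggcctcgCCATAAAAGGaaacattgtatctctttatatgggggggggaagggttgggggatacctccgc

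The Myl9 box starts 161 bases before the start site and the Cnn2 box 56, while Srf has a pair of boxes at 82 and 62. Myl9, a smooth muscle myosin light chain, was at 4.08, 5.56, 4.48, 4.96 and 5.95 in basal-high and 4.61, 3.82, 4.30, 3.79 and 3.62 in basal-low tumours, a difference of 1.02 (SE 0.37, limma adjusted p = 0.595). Cnn2, an actin-binding calponin, differed by 0.53 (SE 0.19) and Srf itself by 0.35 (SE 0.14). The groups overlapped for all 3. A match is a description of these letters and shows no binding.

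Among 25 regulators and signalling genes of basal cells, all of them tested, 20 had a difference above 0. The other 5 were below 0, down to -0.59, and the median of the 25 was 0.41 (0.45 without Wsh replicate 2). An unadjusted p under 0.05 was seen for 5, against 5.13% of all genes on the basal-high side. The groups were separate for 4, Cxcl14, Irx4, Lgr6 and Id4, against 0.936% of all genes in that direction. Cxcl14, a chemokine made by epithelia, was at 3.08, 3.22, 2.74, 3.32 and 2.80 against 2.26, 2.13, 2.45, 2.24 and 1.96, a difference of 0.85 (SE 0.16, limma adjusted p = 0.491). Irx4, an Iroquois homeodomain factor, was at -0.99, 0.06, -1.28, -0.73 and 0.50 against -1.69, -2.13, -1.97, -2.46 and -2.59. That difference of 1.69 (SE 0.36) corresponds to 3.22-fold, and was 1.98 with slide as a covariate and 1.80 without Wsh replicate 2.

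Id4, an inhibitor of helix-loop-helix factors that is found in mammary basal cells, was at -1.27, 0.49, -1.64, -1.04 and 0.55 against -1.86, -2.62, -1.83, -2.07 and -2.26. B6 replicate 3 and Wsh replicate 5, the tumours highest for the contractile genes, were also the highest for Irx4 and Id4. The difference for Id4 was 1.61 (SE 0.45), or 1.74 without Wsh replicate 2. Lgr6, a receptor for R-spondins that marks skin and mammary progenitors, differed by 0.93 (SE 0.20), Pdpn, a surface mucin of basal cells and lymphatics, by 0.76 (SE 0.27) and Nrg1, a ligand of ErbB receptors, by 0.85 (SE 0.39).

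Notch genes were mixed, and Wnt genes lay mostly on the basal-high side. Both lists share members with the basal regulator list, Jag1, Jag2 and Dll1 for Notch and Lgr5 and Wif1 for Wnt. Of 15 Notch pathway genes tested 9 were above 0 and 6 below, down to -0.53 (median 0.40). When the score of all 15 tumours was used as a continuous measure, 13 of these Notch genes were above 0 and the median was 0.10. Only Hey2 of the 15, a transcriptional repressor induced by Notch, had separate groups, against 0.936% of all genes on the basal-high side. Its difference was 1.99 (SE 0.54), with 2 of 5 basal-low arrays well above background, and became 1.27 with normexp correction and 1.06 with the continuous score. Jag2, a Notch ligand, differed by 0.99 (SE 0.46). Of 17 Wnt genes tested 4 had an unadjusted p under 0.05, against 5.13% of all genes on the basal-high side. A difference above 0 was seen for 14 of the 17 Wnt genes, with a median of 0.34. The other 3 were below 0, down to -1.26. Without Wsh replicate 2, 12 of these 17 were above 0 and the median was 0.22. Sfrp1, a secreted Wnt antagonist, led them with 1.67 (SE 0.37) or 3.18-fold, followed by Dkk3, of the Dickkopf family, with 0.75 (SE 0.26) and Znrf3, a ligase that removes Wnt receptors, with 0.67 (SE 0.27).

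**Figure D3:**
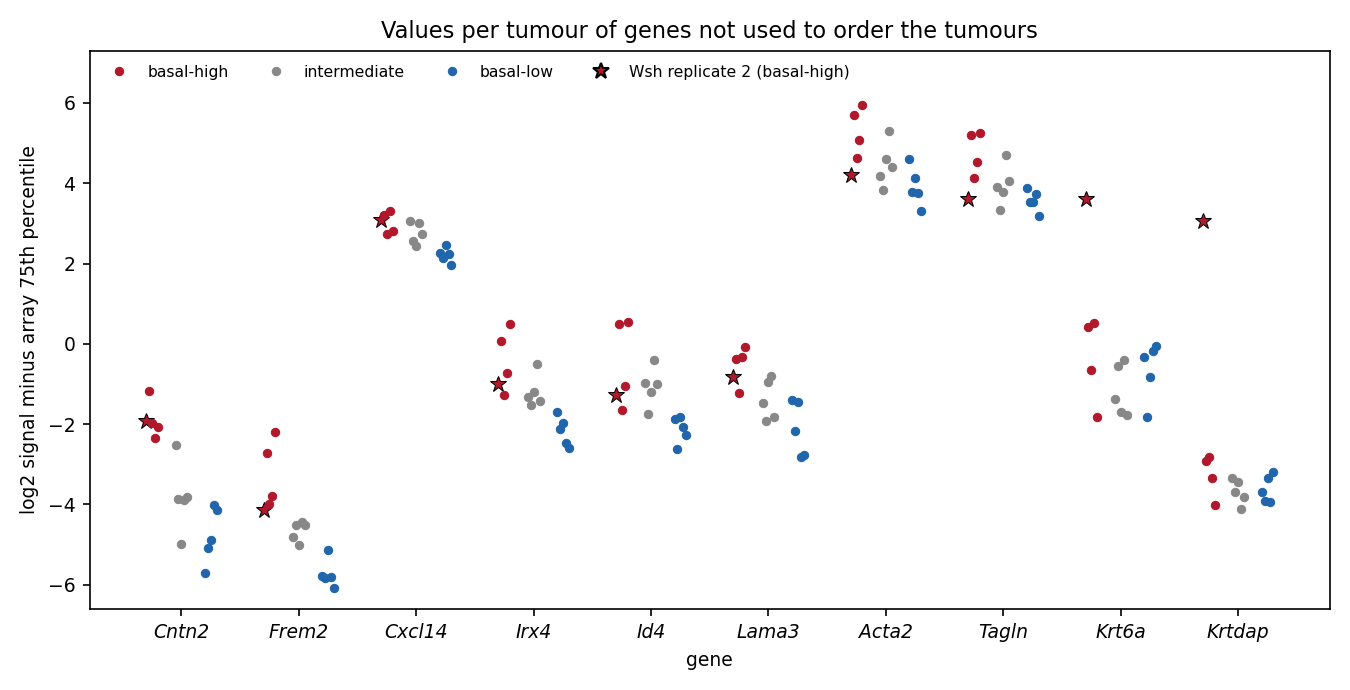
Log2 signal relative to the array's 75th percentile of 10 genes that were not used to rank the tumours, in each basal-high, intermediate and basal-low tumour (5 each, the star is Wsh replicate 2). Cntn2, Frem2, Cxcl14, Irx4, Id4 and Lama3 show no overlap between the extreme groups, Acta2 and Tagln overlap at Wsh replicate 2, and Krt6a and Krtdap are high only there, at 3.61 and 3.05.

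Among the other stratified and stress keratins, Krt6a, Krt16 and Krt79 were high in one tumour. Of 10 list members 6 were tested, and all 6 had a difference above 0, with a median of 1.06 that became 0.42 without Wsh replicate 2. Krt6a, the keratin of wounded and hyperproliferative epidermis, was at 3.61 in Wsh replicate 2 and at 0.41, -0.66, 0.51 and -1.81 in the other basal-high tumours, against -0.34, -1.81, -0.83, -0.19 and -0.05 in the basal-low ones. Krt16, a stress keratin of the same kind, was at 3.15 there and between -2.11 and -1.47 in the others of the group. Their differences of 1.18 (SE 0.89) and 1.13 (SE 0.93) became 0.39 and 0.28 without that tumour. Krt79, a keratin of hair follicle canals and sebaceous glands, was at 4.36 in Wsh replicate 2, with a difference of 1.0 (SE 0.66) that became 0.45.

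Krt15, a keratin of basal cells and the hair follicle bulge, and Krt23 were not highest in that tumour. Krt15 was at 0.24, -1.26, -1.23, -0.32 and 0.32 against -0.68, -1.87, -2.55, -3.46 and -2.04, a difference of 1.63 (SE 0.54, limma adjusted p = 0.537) that was 1.49 without Wsh replicate 2. Krt23 had a difference of 0.64 (SE 0.52), with 2.46 in Wsh replicate 2 and 3.89 in B6 replicate 5 of the basal-low group. Krt80 had 0.42 (SE 0.46, or -0.72 by its other probe).

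The mean over genes of the cornified layer of skin was likewise highest in Wsh replicate 2, although single members such as Tgm3 were not. Of 26 members 13 were tested, 12 had a difference above 0 with a median of 0.34, and 0 had an unadjusted p under 0.05. Without Wsh replicate 2 the median was 0.12. Krtdap, a protein of differentiating keratinocytes, was at 3.05 in that tumour and between -4.01 and -2.83 in the others of its group, against -3.95 to -3.19 in basal-low tumours, and its difference of 1.43 (SE 1.19) became 0.36. Casp14, the caspase of cornification, had 0.91 (SE 0.43), Krt10, a keratin of the suprabasal epidermis, 0.44 (SE 0.34), and Lor, which encodes loricrin, 0.50 (SE 0.46). The crosslinking enzymes Tgm1 and Tgm3 had 0.41 (SE 0.36) and 0.17 (SE 0.19).

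The mean of the cornified genes was 1.77 in Wsh replicate 2 and between -0.66 and 0.27 in the other basal-high tumours, against -0.38 to 0.09 in basal-low ones. For hair follicle genes it was 2.78 against -0.72 to 0.29, and -0.71 to 1.17 in basal-low tumours. Of 10 hair follicle genes tested 7 had a difference above 0 (median 0.51), and 4 without Wsh replicate 2 (median -0.09). The leading members were the hair keratin Krt85 at 0.32 (SE 0.14), the root sheath keratin Krt28 at 1.54 (SE 1.77) and Padi3, a deiminase of the hair follicle, at 0.97 (SE 0.96). Skin and mammary basal cells share Krt5, Krt14, Krt17 and Trp63, the genes of the score. Whether skin was in this sample was not tested, and values without this tumour are given above for the leading results.

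Desmosome genes lay on the basal-high side with smaller values. All 11 tested of 13 had a difference above 0 (median 0.38, or 0.28 without Wsh replicate 2). With adipocyte and muscle content as covariates 9 of the 11 were above 0 and the median was 0.14. Without these covariates 2 had an unadjusted p under 0.05, against 5.13% of all genes on the basal-high side. Pkp1, a plakophilin of stratified epithelia, differed by 1.33 (SE 0.35), or 2.52-fold, and Pkp3 by 0.55 (SE 0.19). Perp, a desmosomal membrane protein and target of p53 and p63, differed by 0.50 (SE 0.24), the plaque proteins Ppl and Jup by 0.39 (SE 0.21) and 0.38 (SE 0.21), and Dsp, the plaque protein desmoplakin, by 0.95 (SE 0.61).

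**Figure D4:**
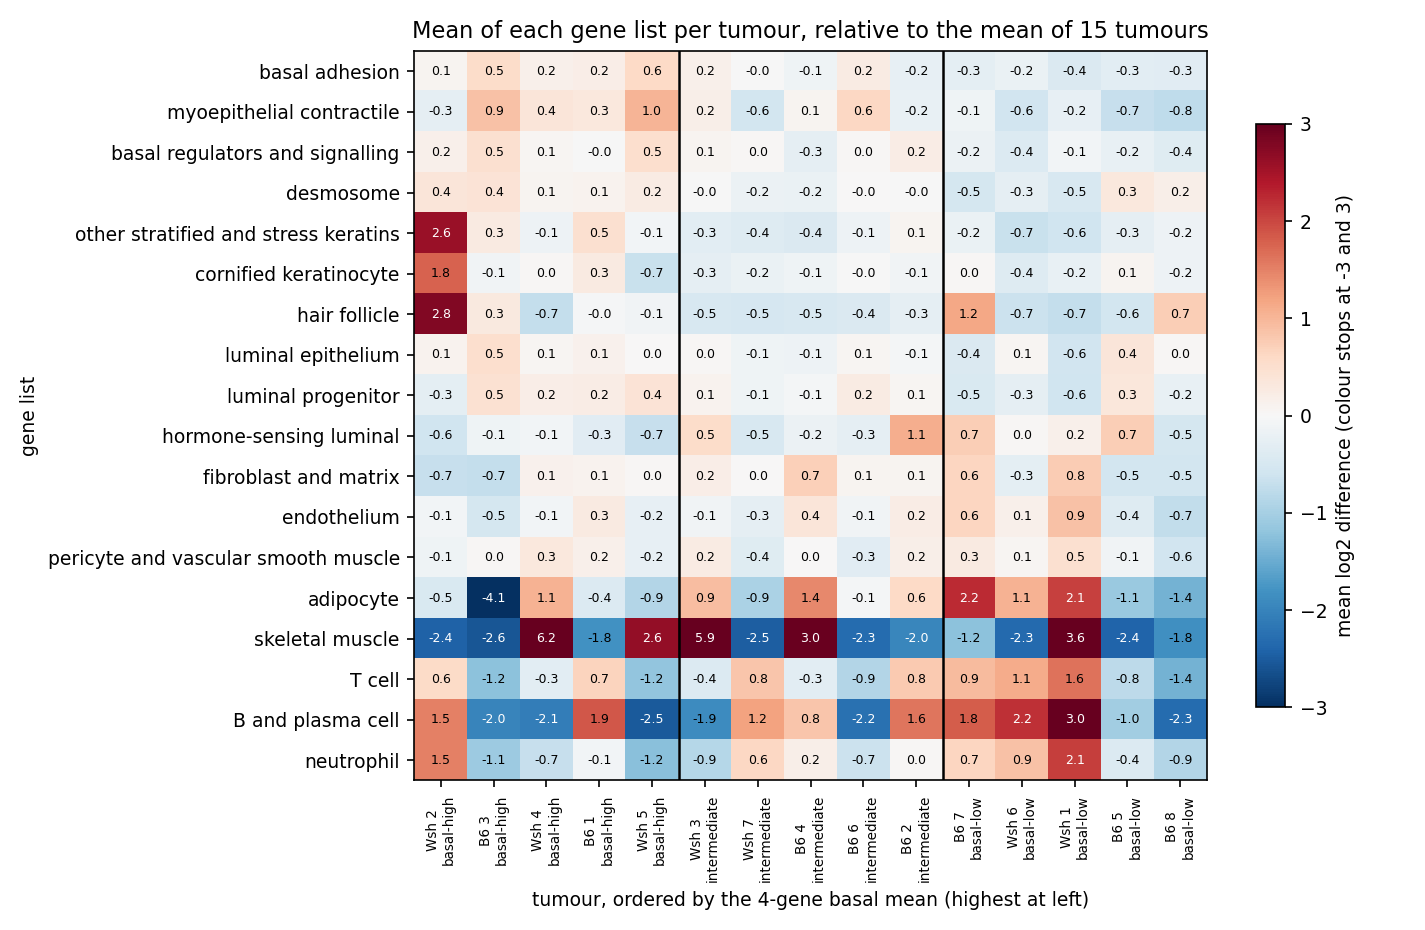
Mean of 18 gene lists (lines) in the 15 tumours (columns, ordered by the 4-gene score, vertical lines part the groups), as log2 signal relative to the mean of all tumours for each gene. Adhesion genes are above 0 in all 5 basal-high and below 0 in all 5 basal-low tumours, stratified keratin, cornified and hair follicle genes stand out in Wsh replicate 2 (2.59, 1.77 and 2.78), and adipocyte, muscle and lymphocyte genes vary widely within each group.

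Luminal genes lay mostly on the basal-high side as well. Of 18 luminal epithelium genes 17 had a difference above 0 (median 0.28), led by Krt19, a keratin of simple epithelia, with 0.74 (SE 0.24). Another of them was Spint1, a protease inhibitor, with 0.42 (SE 0.19). With adipocyte and muscle content as covariates 12 of the 18 were above 0 and the median was 0.07. Luminal progenitor genes had 9 of 9 tested above 0 (median 0.39). Of them, 4 had an unadjusted p under 0.05 (5.13% of all genes on the basal-high side). They included the integrin Itgb3 at 0.38 (SE 0.15) and Cd14, also a macrophage gene, at 0.39 (SE 0.16).

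Kit, the stem cell factor receptor of luminal progenitors and mast cells, is the gene that the Wsh allele affects, so its values are given by background. In B6 it was at 3.84 and 3.84 in the basal-high tumours and at 2.03, 3.77 and 2.97 in the basal-low ones. In Wsh it was at 0.77, 0.55 and 1.40 against 0.05 and -0.18. Within each background the basal-high values were the higher ones and the difference with background as covariate was 0.94 (SE 0.31, limma adjusted p = 0.534). Both other probes of Kit gave 0.38.

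Genes of hormone-sensing luminal cells had 3 of 15 above 0 and a median of -0.32. On the basal-low side 1 of the 15 had an unadjusted p under 0.05, against 2.67% of all genes. The median was -0.66 with slide, -0.17 without Wsh replicate 2, -0.15 with adipocyte and muscle covariates and -0.10 with the continuous score. The 1 gene was Calca, the calcitonin gene, at -3.79 (SE 1.52), with 3 of 5 basal-high arrays well above background and -1.88 with slide as a covariate. Areg, the ErbB ligand amphiregulin induced by estrogen, had -1.65 (SE 0.82, or -0.98 with slide). Tbx3, a T-box factor of hormone-sensing cells, had -0.90 (SE 0.41, or -0.35 by its other probe). With adipocyte and muscle covariates Areg was at -0.12 and Tbx3 at -0.46. The 3 members above 0 reached at most 1.04. Milk and alveolar genes had 5 of 16 above 0 (median -0.22), but 8 with slide (median 0.03) and 9 with adipocyte and muscle covariates (median 0.22), and the median was -0.08 without Wsh replicate 2. Among them Mfge8, a milk fat globule protein, had a difference of 0.54 (SE 0.14). It was the 1 gene of the 16 with separate groups, against 0.936% of all genes on the basal-high side. Lalba, the milk protein alpha-lactalbumin, was at 0.49 (SE 0.31) and the casein Csn1s2a at -1.96 (SE 1.26).

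Genes of mesenchymal transition had no common side (6 of 15 above 0, median -0.15). The transcription factor Snai1 was at 0.68 (SE 0.20), Cdh2, or N-cadherin, at 1.24 (SE 0.39, or 0.63 by its other probe) and the repressor Zeb2 at -0.68 (SE 0.38). Proliferation genes had 9 of 15 above 0 with a median of 0.05, and Plk1, a mitotic kinase, Ccnb1, a mitotic cyclin, and Mcm2, a replication helicase subunit, had 0.30 (SE 0.24), 0.26 (SE 0.25) and 0.27 (SE 0.26). Genes of hypoxia and glycolysis had 8 of 14 above 0 (median 0.11), among them the glycolytic enzyme Eno1 at 0.20 (SE 0.12), Egln3, an oxygen sensor, at 0.56 (SE 0.35) and Bnip3, a mitochondrial protein, at -0.98 (SE 0.52). Interferon response genes had 12 of 13 above 0 (median 0.52, or 0.16 with slide as a covariate), led by Isg15 at 0.80 (SE 0.35), Ifit1 at 0.75 (SE 0.36) and Irf7 at 0.68 (SE 0.34), the first with an unadjusted p under 0.05.

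Genes of fat lay on the basal-low side with wide overlap of the groups, and those of muscle had no stable side. Of 14 adipocyte genes 0 had a difference above 0, with a median of -1.88. On the basal-low side 4 had an unadjusted p under 0.05, against 2.67% of all genes. The list mean was -0.45, -4.08, 1.05, -0.41 and -0.87 in the basal-high tumours and 2.24, 1.05, 2.06, -1.12 and -1.41 in the basal-low ones, so the groups overlapped. Plin1, the coat protein of fat droplets, had -3.30 (SE 1.29), Adrb3, the adrenergic receptor of fat cells, -3.11 (SE 1.25) and Fabp4, a fatty acid carrier, -1.84 (SE 0.77). Skeletal muscle genes were at 6.23 and 2.64 in Wsh replicates 4 and 5 and at 3.62 in Wsh replicate 1, and between -2.56 and -1.22 in the other 7 tumours of both groups. Of 10 muscle genes 8 had a difference above 0 (median 0.60), 0 had an unadjusted p under 0.05, and the median was -0.08 with slide and -0.95 with the continuous score. The muscle genes Acta1, Myh2 and Myl1 had 1.70 (SE 0.86), 1.51 (SE 1.58) and -0.84 (SE 1.48).

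With the adipocyte and muscle means as covariates, which by construction takes their difference out, 17 of 18 adhesion genes and 16 of 16 contractile genes were above 0, with medians of 0.46 and 0.84. Under these covariates several stromal and immune lists lay on the other side of 0. T cell genes had 13 of 14 above 0 (median 0.50), B and plasma cell genes 9 of 11 (median 1.14), macrophage genes 12 of 15 (median 0.30), endothelial genes 8 of 12 (median 0.11) and fibroblast genes 8 of 14 (median 0.05). Without them, fibroblast genes had 3 of 14 above 0 (median -0.34), with Fbln2, a matrix fibulin, at 0.58 (SE 0.25), Lum, a matrix proteoglycan, at -1.16 (SE 0.63) and the growth factor receptor Pdgfrb at -0.33 (SE 0.20). Endothelial genes had 1 of 12 above 0 (median -0.29), with the vessel proteins Esam at -0.54 (SE 0.26), Egfl7 at -0.46 (SE 0.24) and Emcn at -0.27 (SE 0.17). Schwann cell genes had 2 of 7 above 0 (median -0.14), among them Mal at -0.45 (SE 0.30), Ncmap at 0.48 (SE 0.36) and Mbp, myelin basic protein, at -0.14 (SE 0.13).

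Immune genes were mostly below 0 with wide spread, without the adipocyte and muscle covariates. Of 14 T cell genes 1 was above 0 (median -0.82, but -0.09 with the continuous score), and the surface proteins Cd6, Cd5 and Cd2 had -1.76 (SE 0.80), -1.55 (SE 0.83) and -1.29 (SE 0.95). Of 11 B and plasma cell genes 1 was above 0 (median -1.61, but 0.03 when the score of all 15 tumours was used as a continuous measure), with Cd79a of the B cell receptor at -1.86 (SE 0.91) and the B cell surface proteins Cr2 and Ms4a1 at -2.82 (SE 1.85) and -3.07 (SE 2.37, or -0.89 by its other probe). Cd79a, Cr2 and Ms4a1 were each well above background on only 2 of 5 basal-high arrays. With normexp correction they were at -0.68, -2.05 and -1.91. The list median was -0.74 with that correction, and -0.57 over the 4 genes well above background on all 10 arrays. The mean of the 11 genes ran from -2.51 to 1.86 in basal-high and from -2.31 to 3.05 in basal-low tumours. Macrophage genes had 4 of 15 above 0 (median -0.25), with the macrophage marker Adgre1 at -0.55 (SE 0.27) and the mannose receptor Mrc1 at -0.89 (SE 0.46). Neutrophil genes had 1 of 9 above 0 (median -0.97, but -0.01 with the continuous score and -0.47 with normexp correction). They were led by Retnlg at -3.09 (SE 1.14, or -1.77 with normexp correction). The protease Mmp9 had -1.56 (SE 0.91, or -0.59 with normexp correction) and the antimicrobial peptide Camp -1.45 (SE 0.88). Retnlg and Mmp9 were each well above background on only 2 of 5 basal-high arrays.

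On the basal-low side the 12 genes with the largest moderated t mostly had small differences. Of these, 10 were between -0.68 and -0.47. They were Nabp1, a single-stranded DNA binding protein (-0.62, SE 0.12), the delta tubulin Tubd1 (-0.51, SE 0.11), the mitochondrial carrier Slc25a16 (-0.61, SE 0.13), Tgds, a sugar nucleotide dehydratase (-0.50, SE 0.11), and Hagh, glyoxalase II (-0.63, SE 0.15). The others were the lysosomal protein Dram2 (-0.52, SE 0.12), the adhesion protein Amigo2 (-0.68, SE 0.16), Nkiras1, a Ras-like inhibitor of NF-kB (-0.63, SE 0.15), the vesicle protein Sft2d1 (-0.47, SE 0.12) and the peroxisome import factor Pex13 (-0.58, SE 0.15). Another probe of Slc25a16 gave 0.07 and one of Nkiras1 0.08. The larger differences were those of Tinag, a basement membrane protein of kidney tubules, and Clstn2, a calsyntenin of synapses. Tinag was at -2.61 (SE 0.58, 1 of 5 basal-high arrays well above background, -0.93 with normexp correction). Clstn2 was at -2.05 (SE 0.50, 4 of 5 basal-high arrays well above background, -1.37 with normexp correction). All 12 had a limma adjusted p of 0.491.

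When the score of all 15 tumours was used as a continuous measure in limma in place of the groups, 6 genes passed (0.0267% of all), and all rose with the score. They included Sdc1, the epithelial heparan sulfate proteoglycan syndecan 1, Elovl4, an elongase of very long fatty acids in skin and retina, Fst, the activin antagonist follistatin, Pdlim7, and a transcript without a symbol. These genes, apart from Pdlim7, were named after their values were seen. Scaled to the distance between the group means of the score, the slope was 0.91 for Sdc1 (SE 0.11, limma adjusted p = 0.0175) and 2.01 for Elovl4 (SE 0.26, limma adjusted p = 0.0254). For Fst it was 0.96 (SE 0.15, limma adjusted p = 0.0433) and for Pdlim7 0.79 (SE 0.12, limma adjusted p = 0.0433). Wsh replicate 2 had the highest Sdc1 of the basal-high tumours, with 1.58 against 1.15, 0.44, 0.60 and 0.69, and the highest Elovl4, with -0.92 against -1.70, -3.21, -3.30 and -2.43. Without that tumour 0 genes passed (lowest limma adjusted p = 0.113), with slide as a covariate also 0 (lowest limma adjusted p = 0.0565), and the comparison of 5 against 5 tumours called none of these 6. Over all settings the limma adjusted p of the 4 named genes ran from 0.0175 to 0.959.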

How the data were processed

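Total RNA of 15 tumours was hybridised to 1-colour Agilent arrays (Cy3). Per the file headers, the intensity of each spot was read with Agilent Feature Extraction 10.7.3.1, background-subtracted and detrended, and not normalized between arrays. A log2 table from the authors, whose normalization is not given in the sources used here, served as an alternative. Control and outlier-flagged spots were left out and spots of a probe were averaged. Of 56605 probes, 32994 were named through a RefSeq or Ensembl accession, 10224 by symbol, 520 by synonym, and 12867 carry the file's own name. Probe positions are those of the files (mm9), and no exon annotation of that build was used. Probes well above background on at least 5 of the 10 arrays were kept (34551), and the probe of highest mean represented each gene. Values are log2 intensity minus the array's 75th percentile. The comparison of groups used limma 3.58.1 under R 4.3.3 (lmFit, eBayes, two-sided, background as covariate, Benjamini-Hochberg over 22439 genes, threshold 0.05), and scores with exact permutation tests. No array was dropped or imputed in that fit. Steps were tested on simulated data.

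The members, the 27 gene lists (410 genes), the tests and the rule for named genes were chosen with earlier results of these data known. The rule took the 12 genes of largest effect past the threshold in each direction, filled up by the largest moderated t where too few passed, and up to 6 members by absolute moderated t of the 6 lists of basal and keratinocyte genes and 3 of each other list, some of which are not reported here. Alternatives were normexp correction (offset 50), quantile, median and deposited normalization, 3 other filters, the mean of probes, other covariates and blocks, array weights, trend and robust options, the continuous score, the score without each gene, and each array left out.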

Additional observations from a re-analysis of the deposited data

Results flagged for a closer look

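Among the 254 sets of 5 values examined (the named genes and the score with its genes, in each group), 19 held a tumour far from the other 4 by Dixon's criterion, where chance alone gives about 1 in 20 sets. In Wsh replicate 2 these were keratinocyte genes: Krt16 at 3.15 (others of the group -2.11 to -1.47), Krtdap at 3.05 (-4.01 to -2.83), Krt79 at 4.36 (0.70 to 1.59) and Krt80 at -1.07 (-3.72 to -2.96). The same tumour was low for Nrg1, at -0.88 (0.06 to 0.41).

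In the other basal-high tumours, Pkp1 was at 0.57 in B6 replicate 1 (1.78 to 1.99), and Adrb3 was at -4.76 in B6 replicate 3 (0.41 to 1.98). Tbx3 was at 0.43 in Wsh replicate 4 (-0.74 to -0.42), and Krt85 at 1.12 in Wsh replicate 5 (1.49 to 1.60).

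In the basal-low group, B6 replicate 5 was apart for Krt85 at 1.5 (0.97 to 1.11), Cd79a at -6.50 (-3.86 to -2.82) and Csdc2 at -1.0 (-3.05 to -2.55). B6 replicate 8 was apart for Col7a1 at 1.54 (1.93 to 2.07) and Krt10 at -0.18 (0.33 to 0.47), and B6 replicate 7 for Tpm1 at 1.71 (2.21 to 2.33). In Wsh replicate 1 Pdpn was at 2.34 (1.52 to 1.69) and Myh2 at -0.59 (-6.02 to -5.03). In Wsh replicate 6 the mitotic genes Plk1 and Ccnb1 were at 2.94 (1.79 to 1.91) and 1.58 (0.57 to 0.81).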

How the results depend on the processing

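Beside the reported fit, 33 settings were run, and 31 of them called 0 genes. The continuous score called 6, all higher. Leaving out 1 array gave 0 to 1 genes, the 1 being Csdc2, an RNA-binding protein, without B6 replicate 5 (log2 difference 2.14, limma adjusted p = 0.00702, against 0.959 at most over the settings). The number of genes at an unadjusted p under 0.05 ran from 942 (score without Krt14, which replaced 1 basal-low tumour) to 2792 (normexp correction), and was 1122 without Wsh replicate 1. Of 126 named genes 111 kept their sign in all settings. With muscle and adipocyte covariates the difference was -0.16 for Krt23, -0.03 for Dsp, 0.10 for Csn1s2a, 0.07 for Zeb2, -0.17 for Ncmap, 0.10 for Cd5, 0.77 for Cd2, 0.84 for Cr2 and 1.68 for Ms4a1. Krt80 was at -0.15 as the mean of probes and -0.08 with slide. With the continuous score Myh2 was at -0.44, and with slide added Myh2 was at -1.96 and Acta1 at -0.18. With that score without Wsh replicate 2 Lor was at -0.16, Tgm3 at -0.01 and Myl1 at 0.24. Myl1 was also at 0.30 with array weights, 0.15 with the fibroblast covariate and 0.64 with the score without Krt14. The causes were not tested. The continuous fits with slide and without Wsh replicate 2 were chosen after seeing the data.

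For the basal score between slides the difference was 0.57 with normexp correction (exact permutation p = 0.0432), 0.58 with quantile normalization (exact permutation p = 0.0432) and 0.59 in the deposited values (exact permutation p = 0.0367). Leaving out 1 array gave 0.39 to 0.66, with exact permutation p from 0.0146 (without Wsh replicate 1) to 0.114 (without B6 replicate 8), and for the basal score between backgrounds it ran from 0.09 (without Wsh replicate 2) to 0.41. Same-numbered B6 and Wsh tumours correlated between -0.24 and 0.21 in their deviations from the group means, with 1 of 7 pairs over 0.1, so the numbers were not taken to pair the samples. The replicate block called 0 genes and put 2015 at an unadjusted p under 0.05. A fit of each slide alone was not run, since neither slide held 2 tumours of both groups. Differences of dim genes changed with the background step, as for Frem2 (2.33, or 1.42 with normexp correction) and Hey2 (1.99, or 1.27). They should be read with caution.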
